A study of Mus musculus with 6 samples.

Results

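The collagen genes are the family that encodes the alpha chains of collagen. They were chosen by symbol alone, as every gene symbol written as Col, a number, a and a number, and 43 of the 22609 symbols in the count lists met this rule. Of the 43 genes, 33 had enough reads to be tested between the groups and 10 did not. Their transcripts were measured by RNA sequencing in primary white adipocytes, which were grown from the stromal vascular fraction of mouse inguinal fat (subcutaneous white fat) and differentiated in culture. By the labels, all 6 samples came from male C57BL6 mice aged 3 weeks, and the study's methods give another age. The 3 control samples carried a control vector and the other 3 carried miR182 overexpression (the miR-182-5p samples). The labels name electroporation as the delivery, whereas the study's methods describe a mimic of miR-182-5p given with a lipid reagent. The libraries were made from poly(A) RNA, which holds no mature miRNA, and the precursor gene Mir182 had 0 reads in every sample, so the counts do not check the overexpression itself.

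In a collagen molecule, alpha chains with a glycine in every repeat wind around each other into a helix. Fibrillar collagens assemble into the banded fibrils that carry tension, network collagens form sheets such as the basement membrane, beaded filament collagens connect the fibrils to cells, and fibril-associated collagens coat the fibrils and set their spacing. In white fat, fibroblasts and adipocyte progenitors make most of the fibrillar collagen, and mature adipocytes are each wrapped in a basement membrane rich in type IV and type VI collagen.

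The mature sequences of miR-182-5p and of miR-29a-3p, a miRNA known to target many collagen mRNAs, are shown first because the 3′-UTRs of the collagen genes were searched for matches to both. Sequences are from RefSeq (GRCm38.p6), written 5′ to 3′, with the seed (bases 2 to 8) in capitals. The study's methods print a different sequence for mouse miR-182-5p, with another seed, and the RefSeq sequence was used here.
mmu-miR-182-5p (chr6:30165962-30165986, minus strand): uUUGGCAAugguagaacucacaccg
mmu-miR-29a-3p (chr6:31062673-31062694, minus strand): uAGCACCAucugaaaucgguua

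The reverse complement of the miR-182-5p seed is TTGCCAA. On the transcript strand, 4 of the 33 tested collagen genes held it in the 3′-UTR, at 5 positions in all, and 4 of the 5 positions were followed by an A. The 5 sites are shown with up to 10 bases on either side and the match in capitals. They are the matches to the RefSeq seed in the longest annotated 3′-UTR of each tested collagen gene. Other parts of the transcripts were not searched. Positions come from a match to the GENCODE M21 transcripts and are on GRCm38, the build of that annotation and not the build of the count lists.
Col12a1 (chr9:79600317-79600323, minus strand, base 846 of a 3′-UTR of 2178 bases): atttagggatTTGCCAAaaatcctacc
Col5a1, site nearer the stop codon (chr2:28038141-28038147, plus strand, base 1125 of 2498): tctgagatttTTGCCAAggacctgaag
Col5a1, distal site (chr2:28038849-28038855, plus strand, base 1833 of 2498): agttctactcTTGCCAAagaaatgcct
Col6a5 (chr9:105856085-105856091, minus strand, base 1227 of 1240): caacaagtagTTGCCAAaccaatg
Col8a1 (chr16:57625821-57625827, minus strand, base 1084 of 2653): ccaaagtcaaTTGCCAAaaatccaaac

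Matches to the miR-29a-3p seed, TGGTGCT, were found in 18 of the 33 tested collagen genes. For comparison, sites of 4 genes whose values are described below are shown, with the match in capitals. Col11a1 holds 2 such sites and both are shown.
Col11a1 (chr3:114219083-114219089, plus strand, base 256 of 1891): tggatttcgtTGGTGCTgtagaaaaca
Col11a1, distal site (chr3:114219133-114219139, plus strand, base 306 of 1891): atttaaaaaaTGGTGCTcattcccatc
Col24a1 (chr3:145551210-145551216, plus strand, base 504 of 1305): tggtgttgctTGGTGCTgtctcccaaa
Col3a1 (chr1:45348982-45348988, plus strand, base 235 of 959): aatgtctcaaTGGTGCTataataaata
Col5a2 (chr1:45374966-45374972, minus strand, base 1112 of 1763): cttttaatgaTGGTGCTaaaattattt

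Depth was similar in all samples, with 25869810 to 26484794 reads counted on genes in the control samples and 25960631 to 28796712 in the miR-182-5p samples. Levels below are CPM, a normalised read count that divides the reads of a gene by the library size, which was scaled by TMM (trimmed mean of M values). The adipocyte markers were well expressed in every sample, with a summed level of 8757.6 to 9110.8 CPM in control and 6427.4 to 7196.9 CPM with miR-182-5p. Below, "rose" and "fell" mean an adjusted p under 0.05 in edgeR's quasi-likelihood test over 13117 genes, which 23.2% of all genes passed upward and 23.5% downward. "Called" means at least 1.5-fold as well, which 1.97% of all genes passed upward and 5.48% downward. Of the 13 adipocyte markers, 9 fell and 2 rose. Of 10 tested markers of fibroblasts and adipocyte progenitors, 6 fell and 2 rose, and their summed level was 5074.8 to 5134.8 CPM in control and 4928.5 to 5218.2 CPM with miR-182-5p. The part of these shifts in the collagen results was not tested, and in bulk RNA fewer cells of a type and less RNA per cell cannot be told apart.

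Most collagen genes kept their level within 1.5-fold, and a few low or moderately expressed members moved further. Col11a1 and Col10a1 were higher with miR-182-5p, and Col14a1, Col24a1 and Col6a5 were lower, each by at least 1.5-fold with an adjusted p under 0.05 in edgeR's quasi-likelihood test. Col10a1 had 4 to 20 reads a sample and reached the tested set only through the miR-182-5p samples, where it is higher, and its call was lost with DESeq2 and in 4 of 6 fits with a sample omitted. Col10a1 included, the 2 higher genes are 6.06% of the collagen genes tested, beside 1.97% of all tested genes called higher. The 3 lower genes are 9.09%, beside 5.48% of all tested genes called lower. The median log2 fold change of the 33 tested members was −0.05, beside −0.0043 over all 13117 tested genes.

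By adjusted p alone, 9 members rose (27.3%, beside 23.2% of all genes) and 11 fell (33.3%, beside 23.5% of all genes). The other 13 members did not pass. Of the 20 that passed, 15 changed by less than 1.5-fold, 7 upward by 0.09 to 0.50 on the log2 scale and 8 downward, with log2 fold changes of −0.53 to −0.11. In 22 of the 33 members (66.7%) the samples of the 2 groups did not overlap, beside 54.8% of all genes. Col10a1 is among the 9 and the 22, and Col6a6 is among the 22. Each reached the tested set only through the group where it is higher, so the filter favoured the direction in which it is counted. Nothing in the labels says that the 3 samples of a group came from separate cultures, so p-values measure the spread between these samples only.

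**Figure D1:**
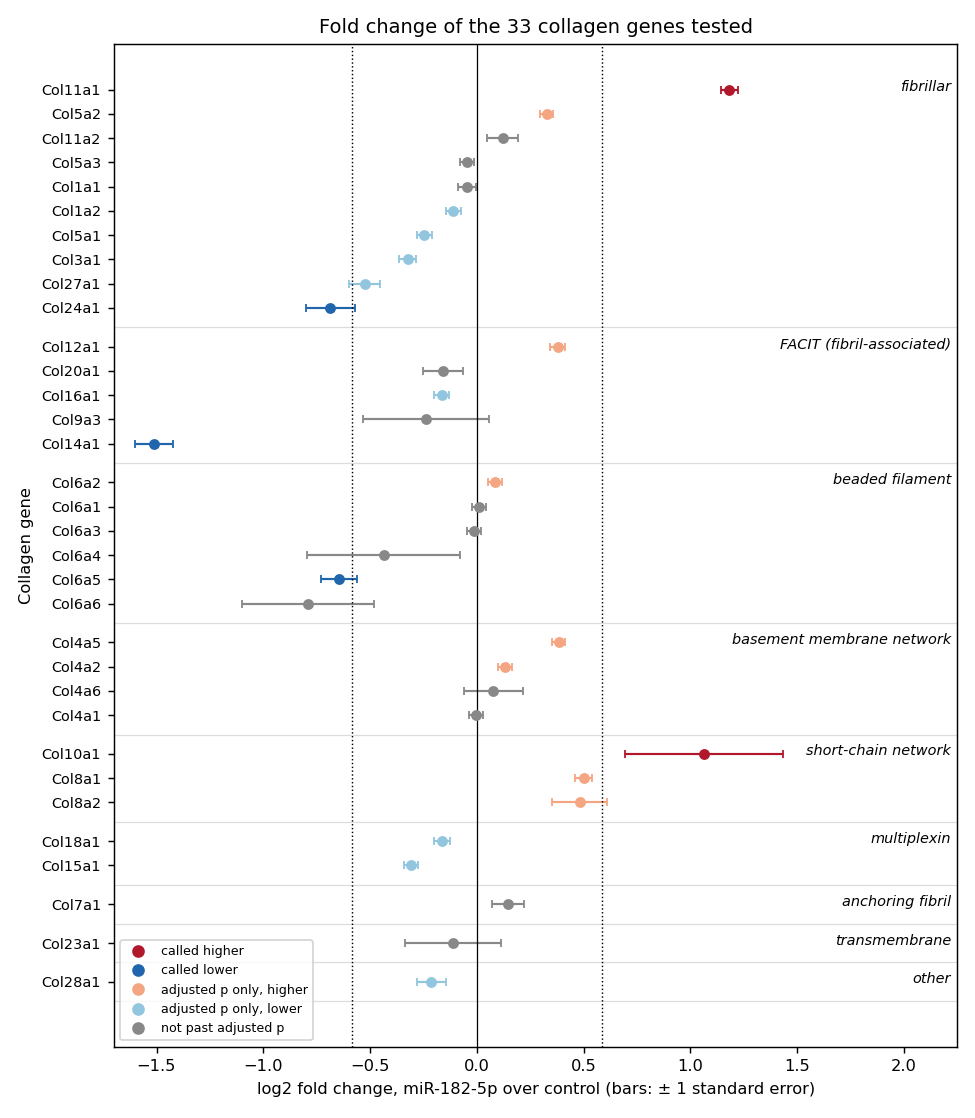
Log2 fold change (miR-182-5p over control) of the 33 tested collagen genes, grouped by structural class, with bars of ± 1 standard error and dotted lines at ± 0.585 (1.5-fold). Col11a1 and Col10a1 lie right of the dotted lines and Col14a1, Col24a1 and Col6a5 left of them in the called colours, whereas Col6a6 lies beyond the line but did not pass the adjusted p.

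The 3 most abundant collagen transcripts belonged to the fibrils. Per kilobase of transcript, Col3a1 (type III collagen, of pliable fibrils) averaged 3542.6 CPM per kb in control, Col1a1 3245.9 and Col1a2 2853.0 (the 2 chains of type I collagen). With miR-182-5p the corresponding levels were 2830.7, 3143.9 and 2642.9 CPM per kb, which put Col1a1 above Col3a1. Next in control came the type VI chain Col6a1 (890.9 CPM per kb), the type IV chains Col4a1 (819.4) and Col4a2 (560.6), the type V chain Col5a2 (538.8), and Col6a2 (531.3).

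**Figure D2:**
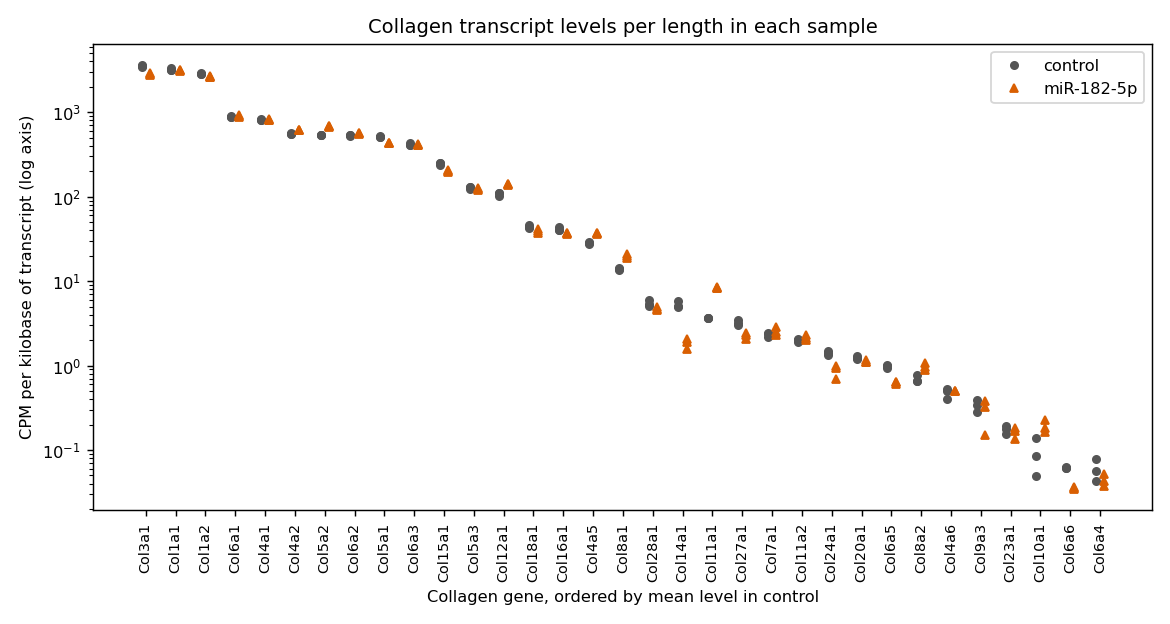
Level of each tested collagen gene in every sample, in CPM per kilobase of transcript on a log axis, ordered by the control mean; grey circles are control samples and orange triangles miR-182-5p samples. Col14a1 lies lower and Col11a1 higher with miR-182-5p than their neighbours in the order, and none of the 10 most abundant genes is called.

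Col3a1 fell. Its level was 20097.1, 19786.9 and 19249.1 CPM in control replicates 1 to 3, and 15472.1, 15593.1 and 16184.8 CPM in miR-182-5p replicates 1 to 3. Every miR-182-5p sample lay below every control sample, with a log2 fold change of −0.32 ± 0.039 (SE) and an adjusted p of 1.23e-05 in edgeR's test. In GENCODE M21, 141 of its 9816 exon bases are shared with an annotated miRNA gene on the same strand.

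Col1a1 was at 19948.5, 18830.8 and 18964.5 CPM in control and 18923.2, 18202.6 and 18804.2 CPM with miR-182-5p. These ranges overlapped, and the difference did not pass the test (log2 fold change −0.05 ± 0.040, adjusted p = 0.378 in edgeR's test). Col1a2 was at 15466.4, 15234.4 and 15072.2 CPM in control and 14129.7, 14000.3 and 14272.2 CPM with miR-182-5p. The 2 groups did not overlap and Col1a2 fell by 0.11 on the log2 scale (SE 0.036, adjusted p = 0.0225 in edgeR's test). It passed the adjusted p in 2 of 6 fits that each left out 1 sample, with adjusted p of 0.0636, 0.0699, 0.0669 and 0.113 in edgeR's test without control replicate 1, 2 or 3 or miR-182-5p replicate 2.

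The type V and type XI chains, which sit inside type I fibrils and limit their width, did not move together. Col5a1, the chain shared by most type V molecules, was at 4439.3, 4249.4 and 4255.7 CPM in control and 3670.7, 3596.1 and 3653.3 CPM with miR-182-5p. It fell by 0.25 on the log2 scale (SE 0.033, adjusted p = 3.06e-05 in edgeR's test). Its partner Col5a2 was at 3577.2, 3559.1 and 3572.1 CPM in control and rose to 4526.0, 4406.9 and 4503.7 CPM (log2 fold change 0.33 ± 0.031, adjusted p = 1.19e-06 in edgeR's test). Neither gene's groups overlapped, so the 2 partners of type V collagen moved apart in all samples. Of the exon bases of Col5a1, 212 of 8490 lie opposite other annotated transcripts, and whether counting used the strand is not given in the sources used here. The less common type V chain Col5a3 did not pass the test (784.3 and 760.0 CPM, log2 fold change −0.05, adjusted p = 0.294 in edgeR's test).

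Col11a1, the type XI chain best known from cartilage, had the largest called increase among the collagen genes. Its level was 28.4, 28.4 and 28.2 CPM in control replicates 1 to 3 and 64.0, 64.6 and 64.2 CPM in miR-182-5p replicates 1 to 3. The samples of each group were nearly alike and the groups lay far apart, at 28.3 ± 0.0759 against 64.3 ± 0.297 CPM (SD, n = 3). Read counting alone is expected to give a wider spread at 722 to 741 reads in control and 1702 to 1869 with miR-182-5p. The SDs therefore understate the uncertainty. The log2 fold change was 1.18 ± 0.041 (2.27-fold) with an adjusted p of 2.9e-11 in edgeR's test, and the gene stayed called whichever sample was omitted. Col11a2, another type XI chain, was at 12.2, 11.4 and 12.4 CPM in control and 12.9, 13.9 and 12.3 CPM with miR-182-5p. Its ranges overlapped and it did not pass (log2 fold change 0.12 ± 0.073, adjusted p = 0.192 in edgeR's test). Of 4 tested markers of cartilage and bone, Sp7 and Runx2, transcription factors of bone formation, rose (log2 fold changes 0.74 and 0.34), while Alpl and Sox9 fell (−0.93 and −0.40). The proteoglycan gene Acan, which defines cartilage, had at most 1 read in a sample, and the part of these genes in the Col11a1 result was not tested.

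The remaining fibrillar members, Col24a1 and Col27a1, are a minor pair with short fibril-forming helices. Col24a1 was at 9.47, 9.96 and 10.6 CPM in control and 4.93, 6.64 and 7.12 CPM with miR-182-5p. It was called lower (log2 fold change −0.69 ± 0.12, adjusted p = 2.34e-04 in edgeR's test). Without miR-182-5p replicate 1, the lowest sample, the log2 fold change was −0.54 with an adjusted p of 0.00024 in edgeR's test, which is under 1.5-fold. Col27a1 fell from 24.8 ± 1.62 to 17.2 ± 1.47 CPM (SD, n = 3), by 0.53 on the log2 scale (adjusted p = 3.41e-05 in edgeR's test), and so stayed within 1.5-fold. In sum, 10 of 11 listed fibrillar genes were tested, of which Col11a1 and Col5a2 rose, 5 fell and 3 did not pass, with a median log2 fold change of −0.08.

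**Figure D3:**
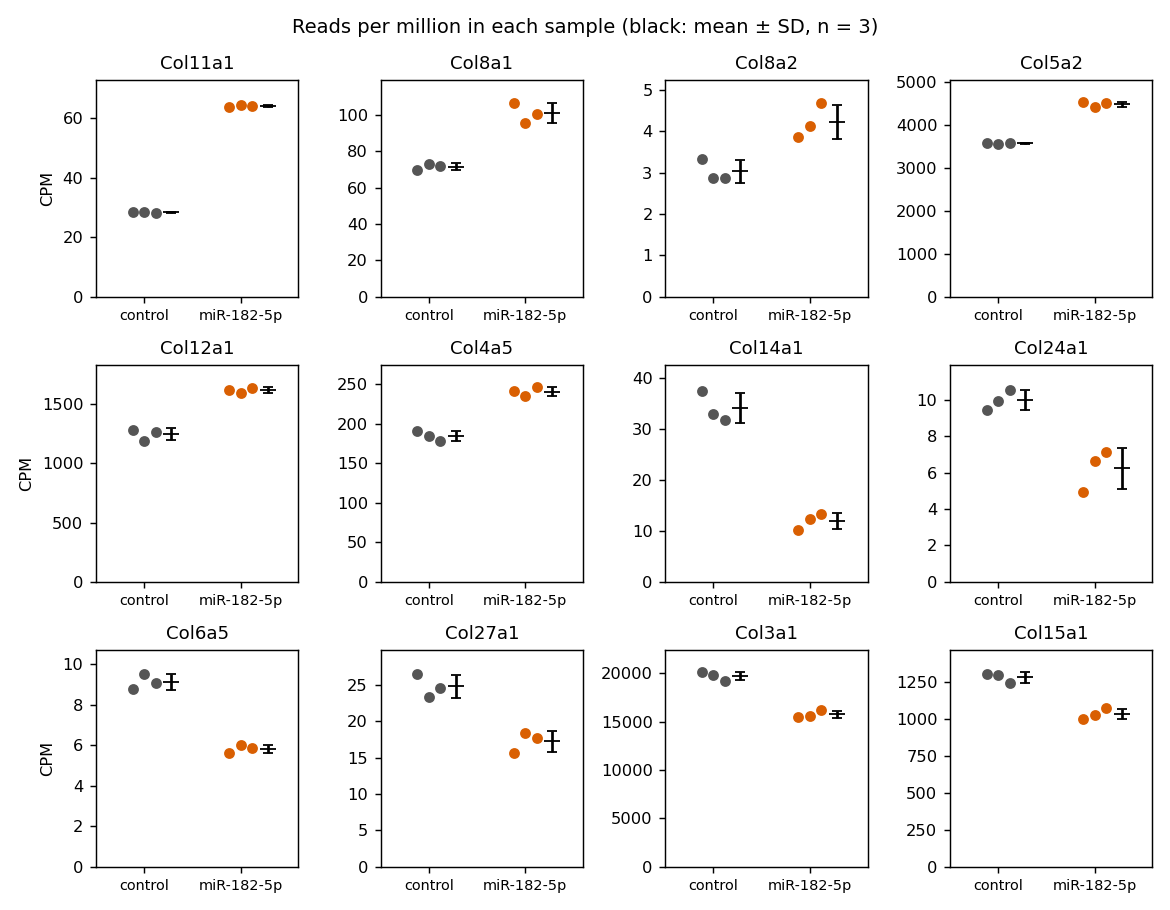
CPM of 12 collagen genes in each sample, with grey points for control, orange points for miR-182-5p and black bars for the mean ± SD (n = 3), each axis starting at 0. The 12 genes are a selection of members that rose or fell, and in none of the 12 panels do the 2 groups overlap. Groups did not overlap in 22 of the 33 tested members and in 54.8% of all genes. The 22 include Col10a1 and Col6a6, which reached the tested set only through the group where each is higher. Col11a1 goes from 28.3 to 64.3 CPM and Col14a1 from 34.1 to 11.95 CPM.

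Col14a1 showed the largest decrease of the family. It encodes type XIV collagen, a fibril-associated collagen that coats type I fibrils and limits their lateral fusion. Its level was 37.36, 32.97 and 31.84 CPM in control replicates 1 to 3 and 10.21, 12.30 and 13.35 CPM in miR-182-5p replicates 1 to 3. The lowest control sample was above the highest miR-182-5p sample by more than the spread within either group (34.05 ± 2.918 against 11.95 ± 1.601 CPM, SD, n = 3). The log2 fold change was −1.51 ± 0.087 (adjusted p = 7.41e-09 in edgeR's test), and the gene stayed called whichever sample was omitted.

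Its nearest relative, Col12a1 (type XII collagen, also bound to the surface of type I fibrils), went the other way. Col12a1 rose from 1286.1, 1187.8 and 1270.2 CPM in control to 1624.8, 1596.4 and 1642.5 CPM, with no overlap (log2 fold change 0.38 ± 0.034, adjusted p = 7.05e-07 in edgeR's test). This was the largest change among the 12 members with at least 1000 CPM in control. Of the 12, 8 passed the adjusted p, beside 23.2% of all genes that rose and 23.5% that fell. In the same 12, 0 were called, beside 1.97% of all genes called higher and 5.48% called lower. Members at this level had standard errors of 0.031 to 0.040 on the log2 scale, so small changes could pass. Col12a1 is a gene with a miR-182-5p site in its 3′-UTR, shown above, and Col14a1 had none. Col16a1, which links fibrils to other matrix, fell by 0.16 on the log2 scale (216.2 to 193.0 CPM, adjusted p = 1.57e-03 in edgeR's test). The fibril-associated Col20a1 (log2 fold change −0.16, adjusted p = 0.192) and the type IX chain Col9a3 (−0.24, adjusted p = 0.539) did not pass edgeR's test. Col9a3 had 13 to 31 reads a sample, and 234 of its 3853 exon bases lie opposite Tcfl5.

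The beaded filament collagen VI is built mainly from Col6a1, Col6a2 and Col6a3, and these stayed close to their control level. Col6a1 was at 3721.0, 3644.5 and 3592.5 CPM in control and 3603.2, 3657.9 and 3757.2 CPM with miR-182-5p. Col6a3, the long chain whose C-terminal fragment is released as endotrophin, was at 3857.3, 3728.1 and 3726.9 CPM in control and 3695.4, 3683.6 and 3835.2 CPM with miR-182-5p. Both sets of ranges overlapped (log2 fold changes 0.01 and −0.01, SE 0.033 for each, adjusted p = 0.863 and 0.782 in edgeR's test). Col6a2 was at 2501.0, 2490.5 and 2424.6 CPM in control and 2564.2, 2629.5 and 2677.5 CPM with miR-182-5p. It rose by 0.09 on the log2 scale (adjusted p = 0.0379 in edgeR's test), but passed in only 1 of 6 fits that left out a sample, the one without miR-182-5p replicate 1.

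The alternative chains of collagen VI, which can take the place of Col6a3, were 3 low members. Col6a5 was at 8.761, 9.534 and 9.080 CPM in control and 5.618, 5.997 and 5.880 CPM with miR-182-5p. It was called lower (log2 fold change −0.65 ± 0.085, adjusted p = 2.58e-05 in edgeR's test), also whichever sample was omitted, and it holds a miR-182-5p site near the end of its 3′-UTR. Col6a6 was at 0.550, 0.536 and 0.536 CPM in control and 0.308, 0.304 and 0.319 CPM with miR-182-5p, on 8 to 14 reads a sample. It reached the tested set only through the control samples, where it is higher, and did not pass (log2 fold change −0.79 ± 0.31, adjusted p = 0.0508 in edgeR's test). Col6a4, at 0.314, 0.421 and 0.575 CPM in control and 0.274, 0.380 and 0.319 CPM with miR-182-5p on 8 to 15 reads a sample, overlapped and did not pass (log2 fold change −0.44, adjusted p = 0.346 in edgeR's test).

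The basement membrane chains of type IV collagen rose or stayed. Col4a1 was at 5532.5, 5405.9 and 5323.0 CPM in control and 5388.0, 5335.6 and 5499.0 CPM with miR-182-5p, and did not pass (adjusted p = 0.943 in edgeR's test). Its obligate partner Col4a2 was at 3695.8, 3583.4 and 3568.7 CPM in control and 3937.5, 3933.1 and 4019.3 CPM with miR-182-5p. It rose without overlap, by 0.13 on the log2 scale (adjusted p = 0.00366 in edgeR's test). Col4a5, a chain of the more specialised networks, rose from 184.8 ± 6.01 to 240.9 ± 5.56 CPM, by 0.38 (SE 0.031, adjusted p = 2.74e-07 in edgeR's test). Col4a6, the neighbour with which Col4a5 assembles in smooth muscle, was at 3.16 and 3.33 CPM and did not pass (adjusted p = 0.67 in edgeR's test). None of the 4 tested type IV genes fell. Of 6 tested markers of smooth muscle and pericytes, 4 rose and 0 fell (beside 23.2% and 23.5% of all genes). Acta2 (log2 fold change 0.29), Tagln (0.19), Cnn1 (0.20) and Cspg4 (0.50) rose, while Myh11 (−0.02) and Des (−0.10) did not pass. The summed level of the list was 3505.2 to 3676.6 CPM in control and 4203.0 to 4560.6 CPM with miR-182-5p. Most of it came from Acta2 and Tagln (2363.8 and 1123.0 CPM in control). The part of these markers in the Col4a5 result was not tested.

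All 3 short-chain network genes rose, beside 23.2% of all genes. Of these, Col10a1 reached the tested set only through the miR-182-5p samples, as described below. Col8a1 and Col8a2, the chains of type VIII collagen made by vascular and other mesenchymal cells, moved by similar amounts. Col8a1 was at 69.5, 73.1 and 71.8 CPM in control and 106.7, 95.8 and 100.7 CPM with miR-182-5p (log2 fold change 0.50 ± 0.041, adjusted p = 2.56e-07 in edgeR's test). Col8a2 was at 3.34, 2.87 and 2.87 CPM in control and 3.87, 4.14 and 4.68 CPM with miR-182-5p (0.48 ± 0.13, adjusted p = 0.0071 in edgeR's test). Neither gene's groups overlapped, and Col8a1 holds a miR-182-5p site.

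Col10a1, the type X chain typical of cartilage cells that enlarge before bone forms, was called higher on very few reads. It had 11, 4 and 7 reads in control and 15, 15 and 20 reads with miR-182-5p, or 0.432, 0.153 and 0.268 CPM against 0.514, 0.569 and 0.708 CPM. The groups did not overlap and the log2 fold change was 1.06 ± 0.37 (adjusted p = 0.0299 in edgeR's test), but the gene passed the filter on low counts only through the miR-182-5p samples. The call was lost with DESeq2 (1.08, adjusted p = 0.101). In edgeR's test it was also lost without control replicate 2 (0.77, adjusted p = 0.127), control replicate 3 (adjusted p = 0.0811), miR-182-5p replicate 2 (adjusted p = 0.0572) or miR-182-5p replicate 3 (adjusted p = 0.102).

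The 2 multiplexins, basement membrane proteoglycans that carry endostatin-like C-terminal domains, both fell. Col15a1 was at 1308.2, 1301.5 and 1243.3 CPM in control and 1002.7, 1031.1 and 1075.0 CPM with miR-182-5p (log2 fold change −0.31 ± 0.034, adjusted p = 4.48e-06 in edgeR's test). Col18a1 went from 245.3 ± 9.71 to 219.2 ± 9.92 CPM (SD, n = 3), by −0.16 (adjusted p = 0.0025 in edgeR's test). Of the 13 adipocyte markers, 9 fell as well, among them Adipoq (928.3 to 675.5 CPM, log2 fold change −0.46). Plin4 (0.50) and Lep (0.37) rose, and Plin1 (−0.06) and Lipe (−0.09) did not pass. Their part in the Col15a1 result was not tested.

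Of the members outside these classes, Col28a1, a collagen with von Willebrand factor A domains, fell from 23.3 to 20.1 CPM (log2 fold change −0.21, adjusted p = 0.018 in edgeR's test). It did not pass edgeR's test without control replicate 2 (adjusted p = 0.101) or miR-182-5p replicate 2 (adjusted p = 0.0676). Col7a1, which forms the anchoring fibrils under epithelia, was at 21.6 and 23.9 CPM and did not pass (log2 fold change 0.15, adjusted p = 0.128 in edgeR's test), though it did without miR-182-5p replicate 3 (0.22, adjusted p = 0.027). Col23a1, a transmembrane collagen, was at 0.992 and 0.914 CPM and did not pass (adjusted p = 0.723 in edgeR's test).

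The 10 members under the filter had at most 15 reads in any sample. Col9a1, a type IX chain, and the transmembrane collagens Col13a1 and Col25a1 were at 0 in all 6 samples. Col2a1, the main fibrillar collagen of cartilage, had 0 to 4 reads, and the type IX partner Col9a2 had 2 to 5. Col4a3 (2 to 11 reads) and Col4a4 (2 to 10), the type IV chains of kidney and lung basement membranes, and the transmembrane Col17a1 (3 to 15) of epithelial junctions were also under the filter. The same was true of the fibril-associated Col19a1 (0 to 2 reads) and Col22a1 (0 to 4). These 10 genes were not compared between the groups. Col26a1 is listed under its older name Emid2, which the rule does not match, and had 0 to 1 reads. It was looked up after the values were seen.

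Summed over all 43 genes, collagen transcripts took 8.58%, 8.35% and 8.31% of the gene reads in control replicates 1 to 3 and 8.13%, 8.05% and 8.24% in miR-182-5p replicates 1 to 3. All miR-182-5p samples lay below the control samples, with means of 8.41% ± 0.143 and 8.14% ± 0.092 (SD, n = 3) and a difference of −0.274 percentage points. Col1a1, Col1a2 and Col3a1 alone took 5.35% ± 0.0974 and 4.91% ± 0.0593. The other 40 collagen genes together went the opposite way, from 3.06% ± 0.0455 to 3.23% ± 0.0353, again without overlap. No test was made of these sums over the chosen genes.

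Within the collagen reads, the fibrillar class went from 73.9% ± 0.0332 to 71.5% ± 0.206, and the multiplexins from 1.79% to 1.56%. The basement membrane class went from 10.82% ± 0.0141 to 11.96% ± 0.0252, the beaded filaments from 11.6% to 12.5%, the fibril-associated collagens from 1.77% to 2.28%, and the short-chain networks from 0.0878% to 0.132%. In each of these 6 classes the samples of the 2 groups did not overlap. The same held for the classes of Col7a1 and of Col28a1, whereas the transmembrane class overlapped. As single genes, 54.8% of all genes did not overlap. Since shares sum to the whole, a lower share of 1 class raises the others, so the classes are not separate observations.

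Ratios between chains, taken per kilobase within each sample, do not depend on the library size. Col3a1 per Col1a1 was 1.07, 1.12 and 1.08 in control and 0.871, 0.913 and 0.917 with miR-182-5p, so Col3a1 was the more abundant in every control sample and Col1a1 in every miR-182-5p sample. Col5a2 per Col5a1 was 1.02, 1.06 and 1.06 in control and 1.56, 1.55 and 1.56 with miR-182-5p. Col11a1 per Col5a1 went from 0.0072 to 0.0194, and Col14a1 per Col12a1 from 0.0487 to 0.0131. Smaller shifts without overlap were seen for Col4a1 per Col4a2 (1.46 to 1.33), Col6a1 per Col6a2 (1.68 to 1.59) and Col1a1 per Col1a2 (1.14 to 1.19).

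In 13 of 15 ratios the groups did not overlap, each with p = 0.1 in a two-sided exact permutation test, the smallest that 3 samples against 3 allow, and an adjusted p of 0.115 over the 15 ratios. The exceptions were Col6a3 per Col6a1 (0.470 ± 0.0037 against 0.464 ± 0.0044, SD, n = 3, exact p = 0.2) and Col8a2 per Col8a1 (0.050 ± 0.0058 against 0.049 ± 0.0061, exact p = 1.0). Thus no ratio could pass an adjusted p of 0.05 in this design, and the ratios are given as values.

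**Figure D4:**
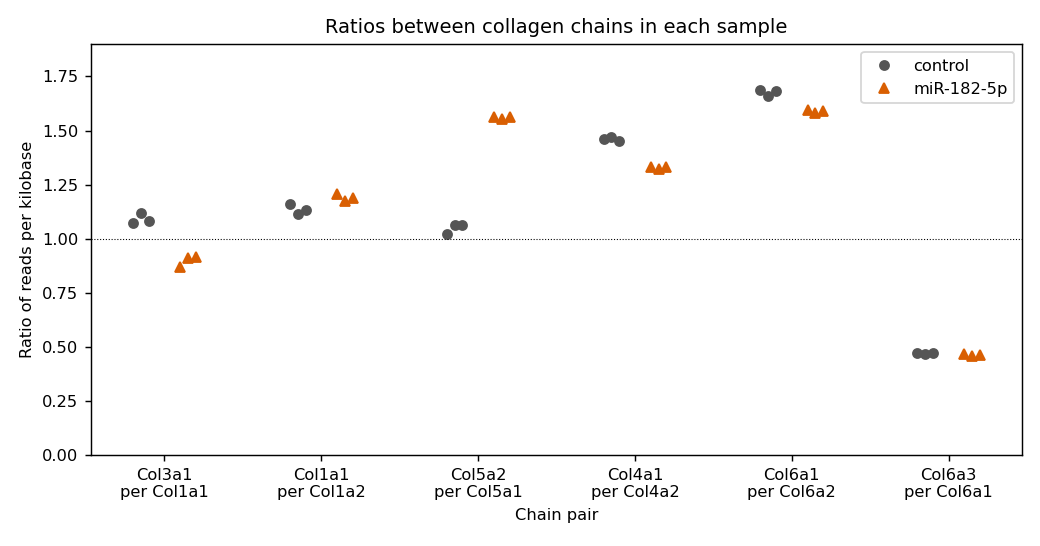
Ratio of reads per kilobase between 6 pairs of collagen chains in each sample, grey circles for control and orange triangles for miR-182-5p, with a dotted line at 1. Col3a1 per Col1a1 crosses from above 1 to below it, Col5a2 per Col5a1 goes from 1.05 to 1.56, and Col6a3 per Col6a1 overlaps.

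The genes with the miR-182-5p seed match shown above did not share a direction. Col12a1 and Col8a1 rose, and Col5a1, which holds a pair of sites, and Col6a5 fell. The match was found in 4 of 33 tested collagen genes (12.1%), close to the 12.5% found over all tested genes whose 3′-UTR is annotated. The 4 collagen genes with a match had a median log2 fold change of 0.07, and the 29 without it one of −0.05. Over all tested genes the median was −0.07 for the 1568 with a match and 0.01 for the 10948 without it.

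The miR-29a-3p match was more frequent in the family, in 18 of 33 tested members (54.5%) beside 15.9% of all tested genes, at a median 3′-UTR length of 1049 bases beside 1201.5 bases. Of these 18 members, 6 rose and 6 fell, and of the 15 without a match 3 rose, Col10a1 among them, and 5 fell. Members with the site thus included Col11a1 and Col5a2, which rose, and Col3a1 and Col24a1, which fell. The median log2 fold changes were −0.01 with the match and −0.16 without it. A match of 7 letters is a description of the sequence and does not show that a miRNA acts there.

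**Figure D5:**
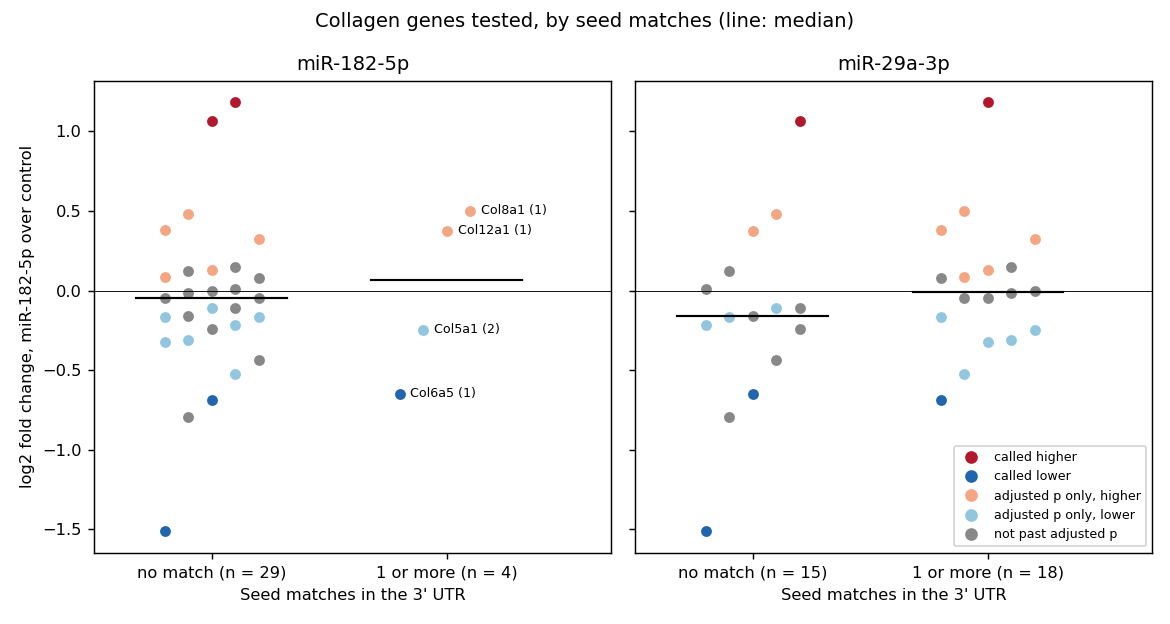
Log2 fold change of the 33 tested collagen genes, split by whether the 3′-UTR holds a match to the seed of miR-182-5p (left) or miR-29a-3p (right), with a line at each median and colours for the calls. Genes with a match lie on both sides of 0 in both panels, including Col8a1 and Col12a1 above it and Col5a1 and Col6a5 below it on the left.

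Other genes of the collagen pathway were listed by role, and their counts stand beside 23.2% of all genes that rose, 23.5% that fell, 1.97% called higher and 5.48% called lower. Among the enzymes that hydroxylate and glycosylate collagen chains, 7 of 13 tested rose, 4 fell and 0 were called. The largest shifts were in the prolyl 4-hydroxylase subunit P4ha2 (log2 fold change 0.47) and the lysyl hydroxylase Plod2 (−0.41). Of 13 tested genes of folding and export, 6 rose and 3 fell with 0 called, and the collagen chaperone Serpinh1 stayed at 2876.4 and 2874.5 CPM (adjusted p = 0.984 in edgeR's test). Of 6 tested crosslinking genes, the lysyl oxidases Lox (log2 fold change 0.41), Loxl1, Loxl2 and Loxl3 rose, and 0 fell. The summed level of that list was 4522.4 to 4668.4 CPM in control and 5648.7 to 5804.9 CPM with miR-182-5p.

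Calls in the pathway lay in propeptide processing, fibril binding and collagen breakdown. In propeptide processing, the protease Tll1 was called higher (log2 fold change 0.88, adjusted p = 0.00114 in edgeR's test) and the enhancer Pcolce2 lower (−0.59, close to the 1.5-fold line, and called in 3 of 6 fits with a sample omitted), while 1 of 7 tested genes rose and 4 fell in all. Of 15 tested fibril-binding genes, 3 rose and 7 fell. Fmod, a proteoglycan of early fibrils, was called higher (log2 fold change 1.16), and Dcn (−0.64), Lum (−1.01) and Tnxb (−1.11), which also bind collagen fibrils, were called lower. Of 10 tested genes of collagen breakdown, 3 rose and 5 fell, with Mmp15 called higher (0.65) and Mmp2 (−0.83), Ctsk (−0.64), Fap (−0.86) and Timp4 (−0.98) called lower. Of these, Timp4 is an inhibitor and the others are proteases. The inhibitors Timp1 (0.17) and Timp3 (0.21) were among the 3 that rose, and the inhibitor Timp2 (−0.36) was among the 5 that fell. Among 8 tested collagen receptors 3 rose, 2 fell and 0 were called, the integrin chain Itga11 having the largest log2 fold change (0.56).

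Over the 7 pathway lists together, 27 of 72 tested genes rose and 25 fell, beside 23.2% and 23.5% of all genes. In the same lists 3 were called higher and 8 called lower, beside 1.97% and 5.48% of all genes. Among the 10 tested markers of fibroblasts and adipocyte progenitors, Pdgfra (log2 fold change −0.86), Cd34 (−1.53) and Pi16 (−0.78) were called lower. Among all genes, 5.48% were called lower. Ly6a (−0.35), Dlk1 (−0.40) and S100a4 (−0.10) of this marker list also fell. Thy1 (0.19) and Vim (0.12) of the same list rose, and Pdgfrb (0.06) and Dpt (−0.04) did not pass. The part of these markers in the lower Col14a1, Col3a1, Dcn and Lum was not tested. Markers of macrophages (12.5 to 16.0 CPM summed, all samples) and of endothelial cells (5.09 to 9.27 CPM) were near 0 beside these levels. Of their 4 and 3 tested genes, Lyz2 (log2 fold change −0.63, called in 2 of 6 fits with a sample omitted) and Tek (−1.31) were called lower and none rose. Of all genes, 5.48% were called lower and 23.2% rose.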

How the data were processed

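Poly(A) RNA of 6 samples was sequenced from TruSeq stranded libraries. For each sample the authors deposited 1 list of raw counts, the reads per gene symbol with no normalization. The submitters' processing notes name bcl2fastq, TopHat2, HTSeq and the build mm9; the annotation and the strand setting of the counting are not given in the sources used here. Counting kept alignments that are not unique apart from genes, so near-identical copies can lose reads. 5 tally lines per list were left out; reads outside genes were 12.7% to 13.0% of reads uniquely aligned, and ambiguous reads 0.652% to 0.667%.

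Counts were tested with edgeR 4.0.16 (R 4.3.3; TMM scaling, a minimum count of 10 in filterByExpr, the quasi-likelihood functions glmQLFit and glmQLFTest, two-sided, no block), with Benjamini-Hochberg adjustment over 13117 genes. A gene was called at 1.5-fold and an adjusted p of 0.05. Replicate pairs were checked and were not copies. Alternatives were DESeq2 1.42.0, limma-voom (limma 3.58.1), other scaling factors and filters, a replicate block, glmTreat, a 2-fold cutoff and leaving out each sample. The fits were tested on simulated data. Levels per kilobase and 3′-UTRs used GENCODE M21 (all 43 genes matched by symbol), the longest coding transcript setting the length; 3′-UTR shares are over the genes that matched. Exact permutation tests used scipy 1.17.1.

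Every collagen gene is accounted for; values per sample are given for called members, the 6 with the highest CPM and the partner chains of called members, and for a few others chosen after their values were seen. Of the pathway lists the called genes are named, with others for illustration. The members and lists were chosen with earlier results of these data known. For that reason a planned permutation test of the collagen share is not given. Amino acid sequences were not used here.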

Additional observations from a re-analysis of the deposited data

How the results depend on the processing

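Of 426 values of single collagen genes under the alternatives, 407 kept their direction and their side of the call, 6 lost the call, 2 gained it and 11 changed sign, in 9 genes in all. These labels follow the direction and the 1.5-fold call, and do not track whether a gene passed the adjusted p alone. The count of called collagen genes was 5, and 3 with a 2-fold cutoff or 2 with glmTreat against 1.5-fold. It was 6 with limma-voom or upper-quartile factors, and 4 with DESeq2 or at least 10 counts in every sample. When a sample was left out it was 4 to 5. The count called higher was 2, and 1 with DESeq2, with at least 10 counts in every sample or with glmTreat, and 1 to 2 when a sample was left out. The count called lower was 3, and 1 with a 2-fold cutoff or glmTreat. It was 4 with limma-voom or upper-quartile factors and 2 without miR-182-5p replicate 1. The count past the adjusted p was 20, and 16 to 20 when a sample was left out. The median log2 fold change (−0.05) ranged from −0.087 to −0.025 when a sample was left out, the lowest without control replicate 2. The collagen share differed by −0.274 percentage points, by −0.484 on TMM-scaled library sizes and by 0.164 without Col1a1, Col1a2 and Col3a1. Signs that changed belonged to genes that did not pass the test. Leaving out a sample gave log2 fold changes of −0.20 to 0.0058 for Col23a1, −0.016 to 0.011 for Col4a1, −0.035 to 0.17 for Col4a6, −0.0048 to 0.023 for Col6a1, −0.027 to 0.0039 for Col6a3 and −0.49 to 0.074 for Col9a3. With upper-quartile factors Col6a1 was at −0.0040 and Col6a6 was called (−0.80, adjusted p = 0.0476 in edgeR's test), and it was called with limma-voom as well (−0.77). Col6a2 did not pass with upper-quartile factors (adjusted p = 0.069 in edgeR's test). The causes were not tested. With the replicate block, 5 collagen genes were called and 18 passed the adjusted p, Col1a2 and Col6a2 no longer among them (adjusted p = 0.13 and 0.107 in edgeR's test). Deviations from the group means had a mean correlation of −0.099 for samples with the same number, beside 0.0492 for different numbers. Centring 3 samples per group ties these 2 means to each other, so they cannot decide whether the number is a pairing. Depth limits the low members most: standard errors were 0.031 to 0.040 on the log2 scale above 1000 CPM and 0.22 to 0.37 under 1 CPM.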
